A study of Mus musculus with 4 samples.

Results

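A group of 6 genes was examined because they stood higher in both Baf60a LKO liver pools than in both WT pools and have little described role in the liver: Tcf24, Hebp2, Arhgef16, Calml4, Slc25a4 and Wfdc2. They are 6 of 18193 measured genes, read by 11 of 45037 probe sets, and every probe set annotated to them is given below. They were chosen by the difference between genotypes on these same arrays, so the differences of the 6 genes are descriptions and carry no test. The groups were livers of Baf60a LKO mice, which lack BAF60a in the liver only, and livers of wild-type (WT) mice, both on the C57BL/6 background. All mice ate high-fat diet for 10 weeks from 6 weeks of age, and liver was taken after a night without food. Each group had 2 Affymetrix whole-genome arrays, and each array carried a separate RNA pool. How many animals went into a pool, whether WT mice carried floxed alleles, and the promoter that drove Cre are not given in the sources used here. Replicates are therefore pools, and any p-value covers the spread between pools, not between mice.

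BAF60a (gene Smarcd1) belongs to the SWI/SNF remodelling complex, which moves nucleosomes and so opens or closes genes to transcription factors. The 6 genes have unrelated products. Tcf24 encodes a basic helix-loop-helix (bHLH) transcription factor, Hebp2 a heme-binding protein of the SOUL family, and Arhgef16 an exchange factor of the ephexin family that loads small GTPases with GTP. Calml4 encodes a calmodulin-like light chain of the myosin that serves microvilli in gut and kidney. Slc25a4 encodes ANT1, a carrier that exchanges ADP for ATP across the inner mitochondrial membrane and is best known from heart and skeletal muscle, and Wfdc2 encodes HE4, a secreted protein of many epithelia with whey acidic protein (WAP) domains.

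The values are log2 levels after robust multi-array average (RMA), 1 per probe set and array, with array medians between 4.19 and 4.27. Background was gauged by the 95th percentile of the 41 probe sets for bacterial transcripts, which lay at 3.02 and 3.12 on the Baf60a LKO arrays and at 3.39 and 3.42 on the WT arrays. All 10 hepatocyte markers, such as albumin, lay above this gauge on every array. Smarcd1 read 5.34 and 5.30 in Baf60a LKO and 5.62 and 5.88 in WT (difference -0.43 ± 0.14, limma adjusted p = 0.410), and whether its probes lie in the deleted part is not known. All 4 Cre probe sets lay higher on both Baf60a LKO arrays: AFFX-CreX-3_at, with the highest mean, read 5.72 and 5.80 in Baf60a LKO and 3.91 and 3.45 in WT, and AFFX-r2-P1-cre-3_at, with the widest gap, read 5.87 and 6.22 in Baf60a LKO and 2.80 and 2.48 in WT. In bulk liver, more or fewer cells of a type and more or less RNA per cell cannot be told apart.

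Tcf24 had the largest measured difference of the group, set against WT values near background. Its only probe set, 1439816_at, read 6.63 and 6.68 in the Baf60a LKO pools and 3.44 and 3.30 in the WT pools. The pools of each genotype lay close together, and the genotypes were far apart. The WT values did not stand clear of background: pool 1 lay 0.05 above the gauge and pool 2 lay under it, at -0.12 from it. The measured difference was 3.29 ± 0.13 (standard error, 2 arrays a group), or 9.77-fold. With each WT value raised to the gauge where it lay under it, Tcf24 was 9.38-fold higher in Baf60a LKO. Against a stricter gauge, the 95th percentile of 44 probe sets for olfactory receptor genes, both WT pools lay under it and Tcf24 was at least 5.32-fold higher. Held to that gauge the difference was 2.41 for Tcf24 and 2.70 for Hebp2, the next gene, so the order of these genes turned. The transcript was thus measured in Baf60a LKO livers, while in WT livers it read at or near background.

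Hebp2 came next in measured size, but its 3 probe sets went different ways. Probe set 1449271_a_at read 7.14 and 6.93 in Baf60a LKO and 4.58 and 3.93 in WT, a difference of 2.78 ± 0.24, or 6.87-fold. Both WT pools lay above the bacterial gauge, by 1.20 and 0.51, and 1 of them lay above the olfactory receptor gauge. The WT pools were 0.66 apart, the widest gap between replicates among the probe sets that stand for the 6 genes. Probe set 1418917_at, annotated with the same transcript accession, read 4.55 and 4.26 in Baf60a LKO and 3.96 and 4.09 in WT, a difference of 0.38 ± 0.15. Probe set 1446415_at, annotated with another accession, read 2.81 and 2.91 in Baf60a LKO and 3.42 and 3.05 in WT, a difference of -0.37 ± 0.16. On that probe set both Baf60a LKO pools lay under the gauge, and 1 WT pool did. The large difference of Hebp2 was thus read by 1 probe set, a dimmer one lay higher by less, and the dimmest lay lower in Baf60a LKO at the level of background.

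Arhgef16 and Calml4 were each read by 1 probe set with WT values above background. Arhgef16 read 7.61 and 7.09 in Baf60a LKO and 5.04 and 5.02 in WT, a difference of 2.32 ± 0.19, or 4.99-fold. Its WT pools nearly coincided, and its Baf60a LKO pools were 0.52 apart, the widest gap between knockout pools in the group. Calml4 read 6.77 and 7.11 in Baf60a LKO and 4.60 and 5.13 in WT, a difference of 2.08 ± 0.22, or 4.22-fold. Both genotypes of Calml4 were spread, with 0.34 between the knockout pools and 0.53 between the WT pools, and the groups did not overlap. The WT mean stood 1.63 above the mean gauge for Arhgef16 and 1.46 above it for Calml4.

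Slc25a4 had 4 probe sets, of which 3 gave nearly the same difference. Probe set 1424562_a_at read 8.71 and 8.39 in Baf60a LKO and 6.87 and 6.99 in WT (1.62 ± 0.16, or 3.08-fold). Probe set 1455069_x_at read 8.45 and 8.25 in Baf60a LKO and 6.76 and 6.87 in WT (1.54 ± 0.14, or 2.90-fold). Probe set 1434897_a_at read 7.54 and 7.48 in Baf60a LKO and 5.44 and 5.98 in WT (1.80 ± 0.20, or 3.48-fold). On these 3 probe sets every Baf60a LKO pool lay above every WT pool, and the WT means stood 2.31 to 3.53 above the gauge. The remaining one, 1424563_at, annotated with the same accession as 1424562_a_at, read 3.12 and 3.29 in Baf60a LKO and 3.20 and 3.27 in WT, so the groups overlapped (-0.03 ± 0.13). Both of its WT values lay under the gauge, while both Baf60a LKO values lay above the lower gauge of their own arrays. All of its values were near the gauge, so this flat reading is that of a probe set near background. The suffix _x_at marks probe sets with probes that can match other sequences, and the closest relative, Slc25a5, encoding the more widespread carrier ANT2, is given with the related genes below.

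Wfdc2 was the brightest of the 6 against background and had the tightest knockout pools. Its only probe set, 1424351_at, read 9.23 and 9.26 in Baf60a LKO and 7.57 and 7.79 in WT, a difference of 1.56 ± 0.14, or 2.96-fold. The WT mean stood 4.28 above the mean gauge, so the transcript was measured in livers of both genotypes. The groups were separated by 1.44 at their nearest pools.

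**Figure D1:**
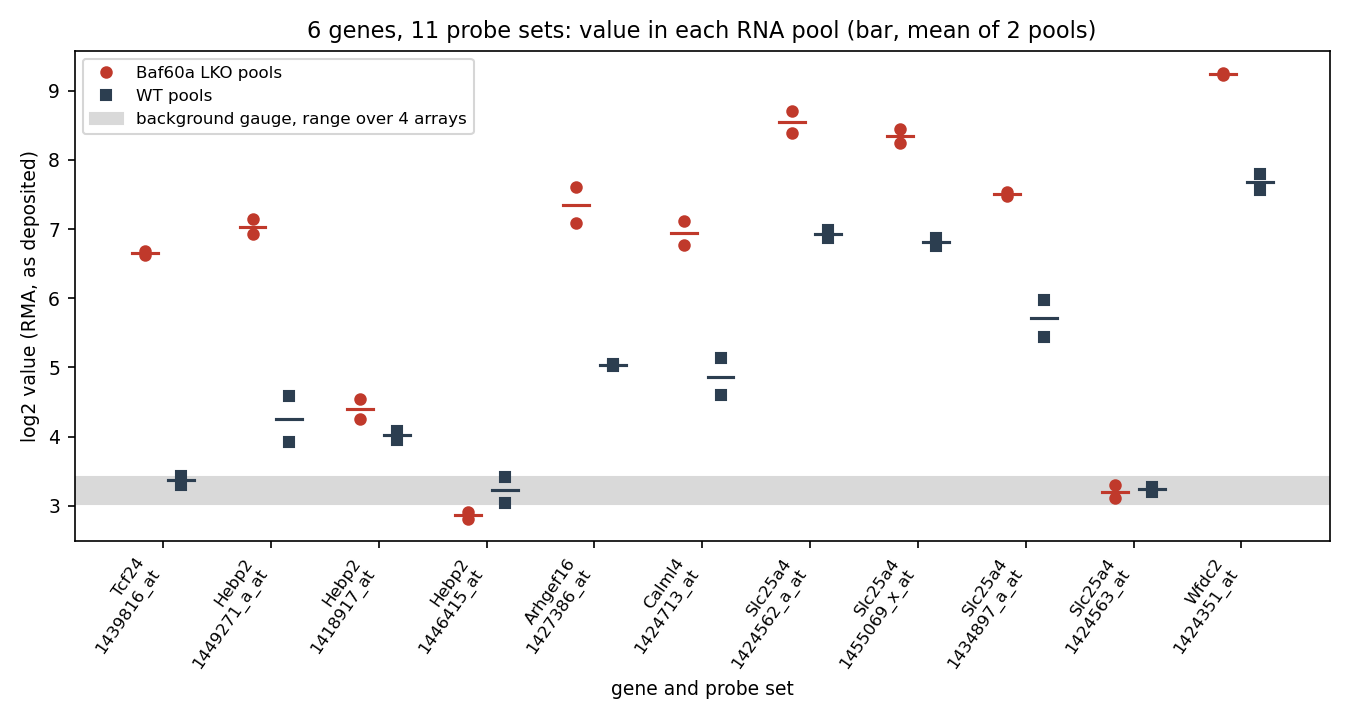
Log2 value (y axis) of each of the 11 probe sets (x axis) in the 2 Baf60a LKO pools (circles) and the 2 WT pools (squares), with a bar at each mean and a grey band for the range of the background gauge over the 4 arrays. Tcf24 in WT, 1446415_at of Hebp2 and 1424563_at of Slc25a4 lie in or near the band, and on 9 probe sets both Baf60a LKO pools lie above both WT pools.

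Counted together, 9 of the 11 probe sets had both Baf60a LKO pools above both WT pools, 1 had both below, and 1 overlapped. Over all probe sets 19.7% had both Baf60a LKO pools above and 19.4% had both below. Over genes, each read by its brightest probe set, all 6 had both knockout pools above by the choice itself, against 22.8% of 18193 genes, while 19.6% had both below. All 6 were at least 2-fold higher, as were 0.528% of genes, and 4 were at least 4-fold higher, as were 0.055% of genes, which is 10 genes in all. The median difference was 2.20 over the 6 genes and 0 over all genes. Since the genes were picked for this difference, these shares describe the choice.

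In order of measured size the differences ran from Tcf24 through Hebp2, Arhgef16, Calml4 and Slc25a4 to Wfdc2. The order is not sharp, and Tcf24 lay below Hebp2 when WT values were held to the olfactory receptor gauge. The 4 differences between a single knockout pool and a single WT pool spanned 3.19 to 3.38 for Tcf24 and 2.35 to 3.21 for Hebp2, so these ranges meet. They spanned 2.05 to 2.59 for Arhgef16 and 1.64 to 2.52 for Calml4, which overlap each other and the range of Hebp2. They spanned 1.40 to 1.84 for Slc25a4 and 1.44 to 1.69 for Wfdc2, and both overlap the range of Calml4. The replicate order was not shared either, with knockout pool 2 above pool 1 in 3 of the 6 genes and below it in the other 3, and likewise for the WT pools.

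**Figure D2:**
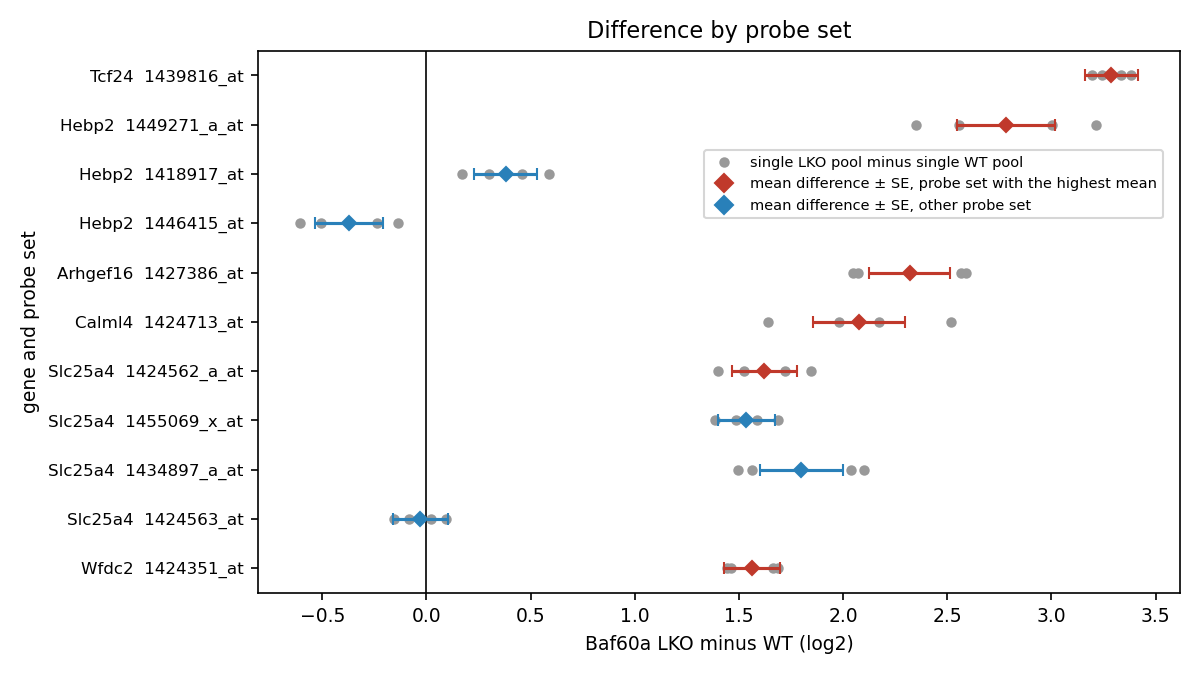
Baf60a LKO minus WT on the log2 scale (x axis) for each probe set (y axis): grey points are the 4 differences between single pools, and diamonds with bars are the mean difference ± standard error, red for the probe set with the highest mean and blue for the others. Probe sets of Slc25a4 gather at 1.54 to 1.80 apart from one at -0.03, and those of Hebp2 are spread between -0.37 and 2.78.

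Among the 53 genes that were at least 2-fold higher in Baf60a LKO and had more than 1 probe set, the distance between the largest and smallest difference of a gene had a median of 1.06. The distance was 3.15 for Hebp2, the largest of the 53, and 1.83 for Slc25a4, the sixth in that order. Of the 84 further probe sets of those genes, 44 had both knockout pools above both WT pools. With all probe sets of a gene averaged, Hebp2 differed by 0.93 and Slc25a4 by 1.23, while the 4 genes with 1 probe set kept their values.

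The promoters of 5 of the 6 genes were held in the RefSeq promoter table of build GRCm38.p6, as 250 bases before and 50 after the start of the gene. They are on chromosome 10 for Hebp2, 4 for Arhgef16, 9 for Calml4, 8 for Slc25a4 and 2 for Wfdc2, and Tcf24 lies on chromosome 1. A set of 6 short motifs was searched on both strands, and no match overlapped another. TATAAA is the core promoter element near many start sites, CACGTG the palindromic E-box bound by some bHLH factors, and GGGCGG the GC box. AGGTCA is the nuclear receptor hexamer, GTTAAT is part of an HNF1 site, and TTCNNNGAA is the STAT palindrome. The 3 promoters with a match to CACGTG, TTCNNNGAA or AGGTCA are shown 5′ to 3′, with that match in capitals, so that the upstream sequences can be compared. They cover chr4:154299846-154300145 on the minus strand, chr9:62857854-62858153 on the plus strand and chr2:164562465-164562764 on the plus strand.
Arhgef16: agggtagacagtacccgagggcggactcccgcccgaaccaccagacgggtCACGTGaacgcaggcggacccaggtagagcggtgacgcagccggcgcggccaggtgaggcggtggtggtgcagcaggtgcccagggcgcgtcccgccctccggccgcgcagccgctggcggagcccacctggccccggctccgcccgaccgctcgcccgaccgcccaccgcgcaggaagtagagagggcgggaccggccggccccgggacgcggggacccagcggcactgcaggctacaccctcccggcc
Calml4: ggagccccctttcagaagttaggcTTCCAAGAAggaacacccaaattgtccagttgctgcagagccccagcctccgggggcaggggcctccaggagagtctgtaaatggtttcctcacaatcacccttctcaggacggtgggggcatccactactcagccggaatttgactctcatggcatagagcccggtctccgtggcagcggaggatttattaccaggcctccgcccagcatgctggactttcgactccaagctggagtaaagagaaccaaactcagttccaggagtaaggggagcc
Wfdc2: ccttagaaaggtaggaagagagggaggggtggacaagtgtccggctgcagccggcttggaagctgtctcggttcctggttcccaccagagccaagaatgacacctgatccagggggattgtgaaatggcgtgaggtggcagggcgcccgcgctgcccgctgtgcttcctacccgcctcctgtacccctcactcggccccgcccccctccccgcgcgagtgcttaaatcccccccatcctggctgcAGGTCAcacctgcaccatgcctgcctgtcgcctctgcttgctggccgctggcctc

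The genes shared no motif of this set except the GC box, which all 5 promoters held, with 6 matches in Arhgef16 and 1 in each of the others. The GC box is common: it was in 35.9% of 27025 mouse promoters of the same length, taking 1 per gene. CACGTG was found in Arhgef16 alone and in 7.24% of all promoters, TTCNNNGAA in Calml4 alone and in 8.47%, and AGGTCA in Wfdc2 alone and in 16% of all promoters. TATAAA, present in 14.2% of all, and GTTAAT, in 7.2%, were in none of the 5 windows. The windows had 77% G and C in Arhgef16, 65.7% in Slc25a4, 65.3% in Wfdc2, 58.7% in Hebp2 and 56.7% in Calml4, against a median of 52.7% over all. A match is a description of letters, and no binding was measured.

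Because the genes lie on 6 chromosomes, the 2 nearest measured genes on each side of each were read to see whether the difference extended to the surroundings. None of the 24 neighbours passed the test over all genes (limma, adjusted p under 0.05), while 4 had an unadjusted p under 0.05, against 0.484% of all genes past the adjusted threshold and 10.2% at an unadjusted p under 0.05. Their differences ran from -0.31 to 0.55 with a median of 0.02, 13 above 0 and 11 below. Of the 24, 8 had both Baf60a LKO pools above both WT pools and 4 had both below, against 22.8% and 19.6% of all genes. The largest difference was beside Tcf24. Snhg6, a small nucleolar RNA host gene, read 10.02 and 10.19 in Baf60a LKO and 9.32 and 9.78 in WT (0.55 ± 0.19, adjusted p = 0.428), and Sgk3, a serum and glucocorticoid regulated kinase gene, differed by 0.44 ± 0.14 (limma, adjusted p = 0.414). On the other side of Tcf24, Ppp1r42 differed by -0.31 ± 0.12 under the gauge on every array (0.28 with averaged probe sets), and Cops5, a COP9 signalosome subunit gene, by 0.19 ± 0.13.

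Around Slc25a4, Primpol, a primase-polymerase gene, differed by 0.47 ± 0.11 (limma, adjusted p = 0.279), Cfap97 by 0.19 ± 0.13, Cenpu by 0.15 ± 0.15 and Snx25 by 0.04 ± 0.12. Around Hebp2 the values were 0.19 ± 0.12 for Nhsl1, 0.00 ± 0.11 for Ccdc28a, -0.16 ± 0.14 for Gm32926 and -0.01 ± 0.11 for Arfgef3, the last under the gauge. Around Arhgef16 they were -0.12 ± 0.11 for Tprgl, -0.08 ± 0.12 for Megf6, -0.17 ± 0.16 for Prdm16 and -0.05 ± 0.13 for Prdm16os, the last under the gauge on every array. Around Calml4, Cln6 differed by 0.31 ± 0.14, Fem1b by 0.06 ± 0.15, Pias1 by 0.03 ± 0.14 and Gm35658, under the gauge, by -0.14 ± 0.14. Around Wfdc2, Dbndd2 differed by 0.19 ± 0.12 (-0.03 with averaged probe sets) and Pigt by -0.04 ± 0.17. The other Wfdc2 neighbours, Wfdc6a and Eppin, belong to the same WAP gene family, lay under the gauge on every array and differed by -0.14 ± 0.20 and -0.28 ± 0.14. Gm35658 and Wfdc6a turned sign with an array left out, and several neighbours within 0.1 of 0, such as Fem1b and Pias1, turned sign under other normalizations.

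**Figure D3:**
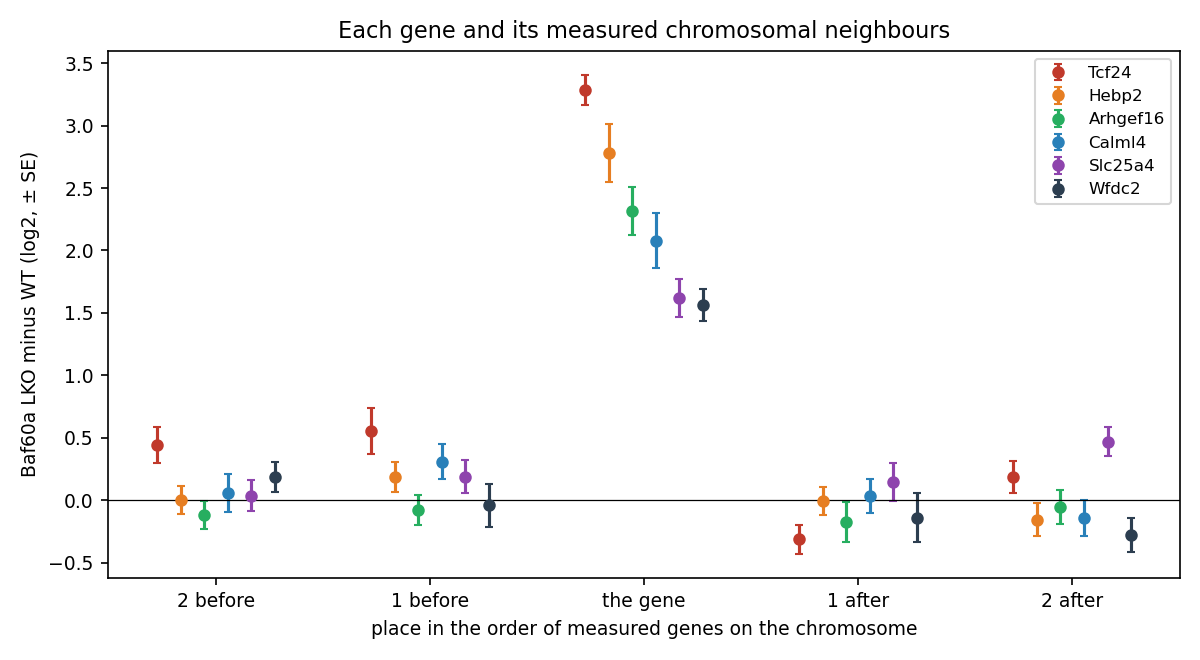
Baf60a LKO minus WT (y axis, log2, ± standard error of the fit over genes) for each of the 6 genes (centre) and the 2 nearest measured genes before and after it in chromosome order (x axis), 1 colour for each of the 6 genes. The 24 neighbours lie between -0.31 and 0.55, below the smallest difference at the centre, 1.56 for Wfdc2.

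Genes related by family or pathway were read from 6 lists that leave out the 6 genes themselves, 95 genes in all. Of these 1 rose, 0 fell and 94 did not pass (limma, adjusted p under 0.05), against 0.484% of all genes past the threshold. An unadjusted p under 0.05 was given to 12 of the 95, against 10.2% of all genes. The 1 that rose was Id1, whose product is a helix-loop-helix protein without a DNA-binding region that pairs with bHLH factors and keeps them from DNA. Id1 read 8.32 and 8.24 in Baf60a LKO and 7.31 and 7.30 in WT, so the groups were clearly apart, with a difference of 0.98 ± 0.11, or 1.97-fold (limma, adjusted p = 0.0444). The call is close to the threshold: it held under 6 of 12 alternatives, whose adjusted p ran from 0.0103 to 0.604, and it was 0.0523 after quantile normalization. With any 1 array left out it did not pass, while the difference lay between 0.94 and 1.01.

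Among the 17 bHLH factors, partners and inhibitors, the 16 besides Id1 did not pass. Tcf21, a bHLH factor of mesenchymal cells, differed by 0.43 ± 0.19 (0.11 with averaged probe sets). Tcf23, near the gauge on all arrays and under it in WT pool 2, differed by -0.30 ± 0.14. Of the 17 genes, 11 lay above the gauge on every array. The E-proteins Tcf3, Tcf4 and Tcf12, the usual partners of tissue bHLH factors, differed by 0.11, 0.02 and 0.10. The signs of Tcf4 and Tcf12 turned when arrays were normalized again, and that of Tcf3 turned with averaged probe sets (-0.14). The other inhibitors Id2, Id3 and Id4 differed by 0.12, 0.22 and 0.10, with Id2 and Id4 turning sign when an array was left out and Id2 at 0.39 with averaged probe sets. The list median was 0.02 and was -0.08 to 0.05 under other normalizations, beside 0 over all genes.

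None of the 17 measured genes of heme binding, synthesis and breakdown passed by limma, and the median was 0.11. Hebp1, the paralog of Hebp2, is bright in liver and read 11.46 and 11.55 in Baf60a LKO and 11.89 and 11.75 in WT (-0.31 ± 0.12, limma adjusted p = 0.489), opposite in sign to 1449271_a_at of Hebp2. Alas1, the rate-limiting enzyme of heme synthesis in liver, differed by -0.44 ± 0.11 (limma, adjusted p = 0.316, but 0.0157 with a trended and robust fit and 0.0157 to 1 over its alternatives). The 3 largest differences were those of Flvcr1, a heme exporter gene (0.64 ± 0.26, and 0.22 with averaged probe sets), Hmox1, the heme oxygenase that breaks heme down (0.51 ± 0.39, with overlapping groups and -0.10 to 1.11 with an array left out), and Urod, an enzyme of heme synthesis (0.50 ± 0.14, and 0.26 with averaged probe sets).

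None of the 17 ephexin exchange factors and partners of Arhgef16 passed, with a median of 0.01 and differences from -0.31 to 0.29. The relatives Arhgef5, Ngef, Arhgef15, Arhgef19 and Arhgef26 differed by 0.19 ± 0.14, 0.01 ± 0.12, 0.21 ± 0.28, -0.08 ± 0.11 and -0.25 ± 0.12, the sign of Ngef turning under another normalization. Arhgef15 was 0.07 with averaged probe sets and -0.21 to 0.63 with an array left out. The 3 largest differences were those of the ephrin receptors Epha4 (-0.31 ± 0.20, but -0.04 with averaged probe sets and -0.56 to -0.06 with an array left out) and Epha2 (0.29 ± 0.13) and of Elmo3 (0.25 ± 0.12), an engulfment and cell motility gene.

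None of the 13 measured genes of calmodulins and the microvillar adhesion complex passed, with a median of 0.00 that was -0.04 to 0.03 under other normalizations and -0.08 to 0.17 with an array left out. Vil1, encoding villin, the actin bundler of microvilli, read 4.77 and 4.46 in Baf60a LKO and 3.83 and 3.71 in WT (0.85 ± 0.15, limma adjusted p = 0.141), with the groups apart. Cdhr5, a cadherin of the microvillar tip, differed by 0.51 ± 0.13 and Pdzk1, a scaffold gene, by 0.45 ± 0.13. Myo7b, the heavy chain that binds CALML4, differed by -0.11 ± 0.17, and its partners Anks4b and Ush1c differed by 0.19 ± 0.12 and -0.09 ± 0.14. Cdhr2, Espn and Myo1a lay at or under the gauge on every array.

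None of the 17 mitochondrial nucleotide and phosphate carriers and pores passed, with a median of 0.04 and differences from -0.28 to 0.36. Slc25a5 read 12.69 and 12.67 in Baf60a LKO and 12.80 and 12.74 in WT (-0.09 ± 0.11, limma adjusted p = 0.791), and its sign was the same under the 3 other normalizations. Slc25a31, the carrier of germ cells, lay under the gauge on all arrays. Slc25a36 differed by 0.36 ± 0.23 (0.08 with averaged probe sets), Slc25a23, an ATP-magnesium carrier gene, by -0.28 ± 0.11 and Slc25a33 by -0.23 ± 0.12. Skeletal muscle markers did not stand higher beside Slc25a4: of 11 measured, 0 passed, against 0.484% of all genes, and 10 were below 0. Their mean log2 level was 3.55 and 3.56 in Baf60a LKO and 3.87 and 3.59 in WT. Only 6 of the 11 lay above the gauge on every array, and the gauge itself lay lower on the Baf60a LKO arrays. Whether that shift near background set these signs was not tested. The 3 largest differences were those of Tnnt3 (-0.47 ± 0.20), Pvalb (-0.33 ± 0.24) and Acta1 (-0.28 ± 0.12), with Myh2 and Tnnt3 under the gauge on every array.

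None of the 14 measured genes of the WAP family and related inhibitors passed, and 12 of them were below 0, with a median of -0.10. Of the 12, Wfdc5, Wfdc18, Wap and Spint2 lay near 0 and turned sign under another normalization. Only 10 of the 14 lay above the gauge on every array, and Wfdc5, Wfdc6a and Eppin lay at or under it on all arrays. The gauge itself lay lower on the Baf60a LKO arrays, and its part in the signs of this list was not tested. Spint1, an epithelial inhibitor of hepatocyte growth factor activator, read 4.60 and 4.58 in Baf60a LKO and 3.94 and 4.06 in WT (0.59 ± 0.12, limma adjusted p = 0.187). Wfdc1 differed by -0.59 ± 0.15, Wfdc12 by -0.38 ± 0.15 and Slpi, the secretory leukocyte peptidase inhibitor gene, by -0.18 ± 0.15. No measured relative of Wfdc2 passed in either direction.

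**Figure D4:**
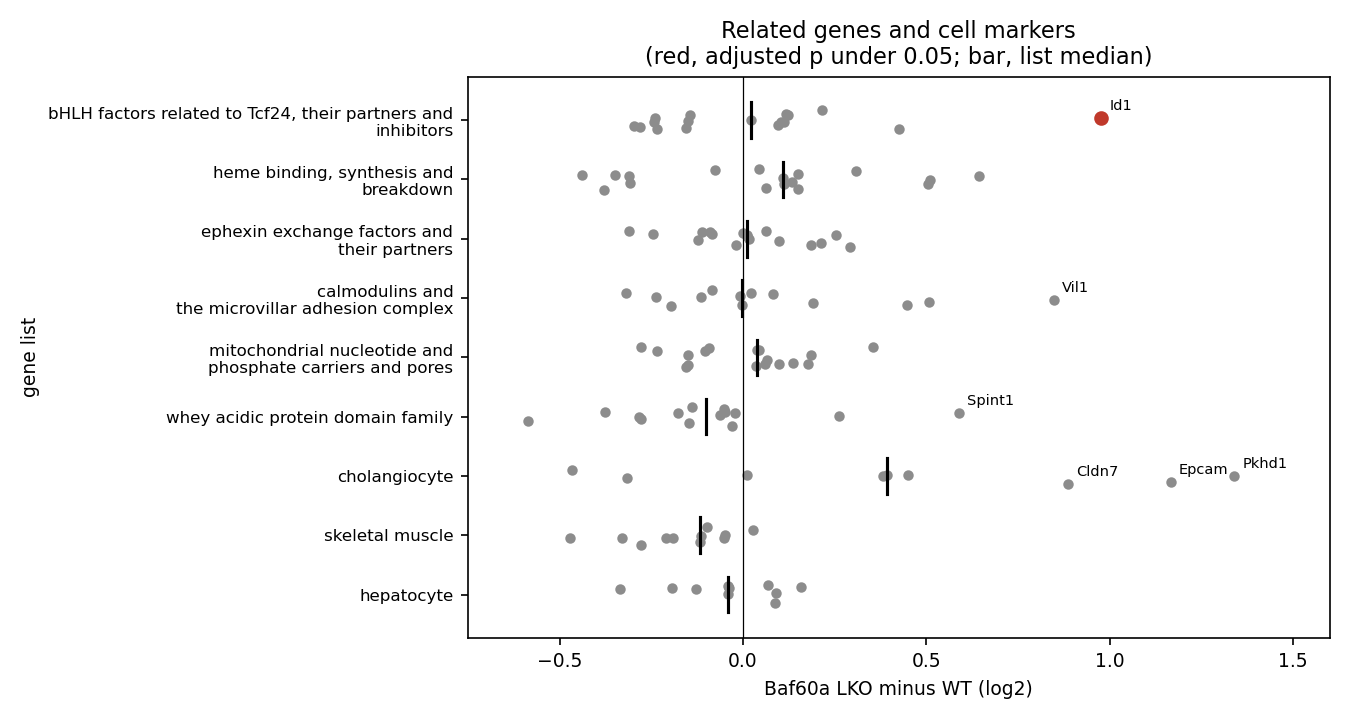
Baf60a LKO minus WT (x axis, log2) for each gene of the 6 lists of related genes and of 3 lists of cell markers (y axis, with points spread vertically for legibility), with a black bar at each list median and red for an adjusted p under 0.05. Id1, at 0.98, is the 1 gene in red, and Cldn7, Epcam and Pkhd1 lie between 0.89 and 1.34.

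Markers of cholangiocytes, the epithelial cells of bile ducts, were mostly above 0. Of 9 measured, 0 passed by limma, 7 were above 0, and 6 had both knockout pools above both WT pools, against 22.8% of all genes. Pkhd1 read 5.77 and 6.45 in Baf60a LKO and 4.45 and 5.09 in WT (1.34 ± 0.30, limma adjusted p = 0.238). Epcam differed by 1.17 ± 0.21 (0.40 with averaged probe sets) and Cldn7 by 0.89 ± 0.16. The defining keratins Krt19 and Krt7 differed by 0.39 ± 0.13 and 0.45 ± 0.21, with both WT values of Krt7 under the gauge. In contrast, Krt23 and Muc1 differed by -0.47 ± 0.12 and -0.31 ± 0.19, and Cftr lay under the gauge on every array. The mean log2 level of the 9 markers was 4.44 and 4.69 in Baf60a LKO and 4.09 and 4.18 in WT. These levels were higher in Baf60a LKO as were the 6 genes, among them the epithelial gene Wfdc2, and their part in those differences was not tested.

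Of 9 measured intestinal markers, relevant to Calml4, 0 passed, against 0.484% of all genes, and 8 were below 0. Only 3 of the 9 lay above the gauge on every array. The gauge lay lower on the Baf60a LKO arrays, and its part in these signs was not tested. Cdh17, Lct, Alpi and Muc2 lay at or under the gauge on every array. The 3 largest differences were those of Krt20 (-0.56 ± 0.14), Lgals4 (0.35 ± 0.11) and Cdx1 (-0.26 ± 0.17). The mean log2 level of the 9 intestinal markers was 4.43 and 4.42 in Baf60a LKO and 4.70 and 4.46 in WT. The 10 hepatocyte markers had a median difference of -0.04, which was -0.05 to -0.01 under other normalizations, and the 3 largest differences were those of Tat (-0.34 ± 0.14), Hnf4a (-0.19 ± 0.11) and Fga (0.16 ± 0.11).

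The genes whose values over the 4 arrays lay nearest to those of each member were found from log2 values centred on each gene's mean, by the root mean square difference. Since size dominates this measure, the nearest genes are others that stood higher by a like amount on the same arrays, and their differences are given as a description. Tcf24 was nearest to Hebp2 (0.33), then to Akr1c18, an aldo-keto reductase gene (0.37), and Pcp4l1 (0.40). Hebp2 was nearest to Tcf24, Arhgef16 (0.34) and Pcp4l1 (0.43). Arhgef16 was nearest to Csad, an enzyme of taurine synthesis (0.24), Tomm40l (0.24) and Pcp4l1 (0.32).

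The genes with smaller differences had closer matches. Calml4 was nearest to Saa1, an acute phase protein gene with a close copy in Saa2 (0.12), Neu2, a sialidase gene (0.15), and Csad (0.22). Saa1 read 12.40 and 12.97 in Baf60a LKO and 10.36 and 10.69 in WT, so like Calml4 it was higher in pool 2 of each genotype. Slc25a4 was nearest to Cox6b2, a subunit isoform gene of cytochrome c oxidase (0.04), Unc13b, a gene of vesicle release (0.10), and Acpp, an acid phosphatase gene (0.11). Cox6b2 read 5.90 and 5.62 in Baf60a LKO and 4.06 and 4.11 in WT, a difference of 1.68 beside 1.62 for Slc25a4. Wfdc2 was nearest to Unc13b (0.06), Cdh1, the gene of epithelial cadherin (0.09), and Acpp (0.09), and Slc25a4 and Wfdc2 lay 0.13 apart. Cdh1 read 7.42 and 7.31 in Baf60a LKO and 5.81 and 6.07 in WT, a difference of 1.42. With 4 arrays in 2 groups, such likeness says little beyond the size of the difference.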

How the data were processed

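The members and the gene lists were chosen with earlier results of these data known. Per the submitters' processing notes, the authors used affy, RMA and limma, with no versions given. The deposited values are log2 levels, judged by their range, 1 per probe set and array. Of 45101 probe sets, 64 controls were left out. The platform annotation gave 1 symbol to 34945 probe sets, several to 932, and did not list 9160. Symbols were updated through RefSeq (GRCm38.p6) for 34741, and each of 18193 genes was read by its brightest probe set (highest mean over arrays). RefSeq served for names, gene order and promoters only, since the sources name no build for the array.

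The groups, 2 arrays each, were tested on log2 values by lmFit and eBayes of limma 3.58.1 (R 4.3.3), 2-sided, with Benjamini-Hochberg adjustment over all genes, a threshold of 0.05 and no filter on level. Standard errors of the 11 member probe sets come from the fit over 45037 probe sets, others from the fit over genes. The number of arrays limits precision, and RMA compresses differences of dim genes. The fit was also run on simulated data with independent noise in each array, which cannot show how it handles shifts of a whole array. Of 193 list entries, 175 had a value. Named genes are every passing gene and the 3 largest differences of each list, all neighbours and the 3 nearest profiles of each member. Other genes, such as Slc25a5, Hebp1 and Alas1, were chosen after their values were seen. Alternatives were other normalizations, probe set rules, a level filter, eBayes settings, a replicate block, left-out arrays and background gauges.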

Additional observations from a re-analysis of the deposited data

How the results depend on the processing

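All 6 genes were higher in Baf60a LKO under each of 9 alternatives (3 normalizations, 2 probe set rules and 4 left-out arrays). The left-out arrays could not turn this, since the genes were chosen with both knockout pools above both WT pools. Nor could the rule that left out probe sets ending in _x_at or _s_at, since none of these stood for 1 of the 6 genes. With 1 array left out the differences were 3.22 to 3.36 for Tcf24, 2.45 to 3.11 for Hebp2, 2.06 to 2.58 for Arhgef16, 1.81 to 2.34 for Calml4, 1.46 to 1.78 for Slc25a4 and 1.45 to 1.67 for Wfdc2. Averaging probe sets moved Hebp2 to 0.93 and Slc25a4 to 1.23, since dim or flat probe sets enter the mean. Of the 11 probe sets, 8 had both WT pools above the bacterial 95th percentile, 6 above that of olfactory receptors, and 3 above the highest bacterial probe set.

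The count of genes that passed by limma was 88 and became 142 after cyclic loess, 154 with array medians subtracted, 216 with a trended and robust eBayes, 19 with the replicate block, and 0 to 17 with 1 array left out. It was 10 when Baf60a LKO replicate 1 was dropped, 17 when Baf60a LKO replicate 2 was, 0 when WT replicate 1 was (limma, 1630 with unadjusted p below 0.05), and 3 when WT replicate 2 was. A left-out array or a block leaves fewer degrees of freedom. Higher calls were 43 of 88, but 91 of 154 with array medians subtracted, and the median over all genes moved by at most 0.03 from its value of 0 under the other normalizations. Of the 95 related genes, the 1 that passed became 0 after quantile normalization (17 at an unadjusted p under 0.05 by limma). It became 0 with the replicate block (12) and 2 with a trended and robust eBayes (Id1 and Alas1). Neighbours and cell markers had 0 calls by limma under each alternative with all 4 arrays. At an unadjusted p under 0.05 they had 2 to 4 and 5 to 14. Over all genes that count was 1304 of 9097 with the level filter. It was 1778 of 17903 to 2061 of 18193 with the other alternatives.

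Replicate numbers are shared by the groups, but nothing ties same-numbered pools to each other. Over genes, the difference between replicates 1 and 2 correlated at 0.14 between the genotypes. In this balanced layout a replicate block leaves every mean difference as it is and alters only errors and p-values.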

Other observations

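Among 7 markers of lymphocytes and neutrophils, 5 were above 0 and 2 below in Baf60a LKO livers. By limma 0 of 7 passed, against 0.484% of all genes, and 3 had both knockout pools above both WT pools, against 22.8%. The lymphocyte markers Cd3g, Ms4a1, Cd3e and Cd79a differed by 0.15, 0.04, -0.08 and -0.14, Ms4a1 turning sign with an array left out. The 3 neutrophil markers were all above 0. Ngp, a neutrophil granule protein gene, read 4.88 in both Baf60a LKO pools and 4.13 and 4.21 in WT (0.71 ± 0.11, limma adjusted p = 0.120). S100a8, a subunit of calprotectin, read 5.97 and 6.58 in Baf60a LKO and 4.90 and 5.87 in WT (0.89 ± 0.36, limma adjusted p = 0.495). Its partner S100a9 differed by 0.64 ± 0.32 with overlapping groups. With an array left out, S100a8 differed by 0.40 to 1.38 and S100a9 by 0.18 to 1.10. Markers of Kupffer cells, endothelium, stellate cells and pancreatic acinar cells had medians of 0.09, -0.10, -0.06 and -0.03, the last turning sign under other normalizations, with 0 of 8, 7, 8 and 7 past the threshold by limma. The 4 measured adipocyte markers had a median of -0.27 with 0 past the threshold, against 0.484% of all genes. Only 1 of the 4, Retn, lay above the gauge on every array. Adipoq and Lep lay under the gauge on every array, and Ucp1 was above it in WT pool 1 alone. The gauge lay lower on the Baf60a LKO arrays, and its part in these signs was not tested. The 3 largest differences were those of Timd4 (0.28 ± 0.29), Marco (0.16 ± 0.32) and Cd68 (-0.14 ± 0.19) for Kupffer cells and macrophages, and of Lyve1 (0.36 ± 0.23), Stab2 (-0.19 ± 0.12) and Kdr (-0.12 ± 0.11) for endothelium. They were those of Col3a1 (-0.35 ± 0.12), Lrat (-0.17 ± 0.12) and Col1a1 (-0.16 ± 0.14) for stellate cells. For pancreatic acinar cells they were those of Cel (-0.32 ± 0.25) and Cpb1 (-0.27 ± 0.20), both under the gauge on every array, and Cela2a (0.17 ± 0.11). Among adipocyte markers they were Ucp1 (-0.41 ± 0.23), Retn (-0.40 ± 0.23) and Lep (-0.15 ± 0.13). Of 80 markers in all, 9 had an unadjusted p under 0.05 by limma, against 10.2% of all genes.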
